A study of Mus musculus with 4 samples.

Results

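The genes described here are 7 transcripts that were far more abundant in mouse medulloblastoma cells given the Smoothened inhibitor GDC0449 and that belong to no list of neuronal genes: Chodl, Papln, Nppc, Cyp11a1, Cthrc1, B3galt2 and Vipr1. They were picked by name for rises over 3.7-fold in this same comparison, and all 7 were found among the 55573 genes of the deposited table. The values that chose them are therefore given as a description, without a test. SmoWT cells were grown as neurospheres for 24 h with 0.1 µM GDC0449 (vismodegib, 2 libraries) or with DMSO, its solvent (2 libraries). These are cells of the Sonic Hedgehog subtype from spontaneous tumours of Ptch1+/-, Trp53-/- mice, labelled as strain C57BL/6, so the DMSO cells carry both alleles as well. The labels do not say how many tumours gave the cells or whether the replicates were separate cultures. The spread between replicates may therefore be technical.

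In such tumours, loss of the receptor Ptch1 leaves Smoothened active, and Gli transcription factors are switched on. GDC0449 binds Smoothened and blocks that step. Protein kinase A, which cyclic AMP activates, phosphorylates Gli proteins and restrains them. The 7 genes have no shared pathway. They encode a secreted peptide hormone (Nppc), a peptide hormone receptor (Vipr1), a mitochondrial steroid enzyme (Cyp11a1), a Golgi glycosyltransferase (B3galt2), secreted matrix proteins (Papln and Cthrc1) and a membrane lectin (Chodl).

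Libraries held 16329721 to 20790030 reads in genes. Levels are given as CPM, the usual count per megaread, relative to the reads in the genes that passed the filter on low counts and scaled with TMM factors (trimmed mean of M values). Gli1, the transcription factor whose own transcript reports pathway activity, was at 38.8 and 32.7 CPM in the GDC0449 libraries, against 281 and 263 CPM in the DMSO libraries. Of 8 markers of granule neuron progenitors, the cells that these tumours resemble, all had reads, and their sum was 1307 and 1389 CPM in GDC0449 libraries and 1254 CPM in each DMSO library. Nearly equal sums held calls in both directions (edgeR). Atoh1, Meis1 and Neurod1 were called higher, by 1.76-, 1.95- and 1.81-fold, and Gli1 lower, while Zic1, the most abundant, was at 609 and 673 CPM in GDC0449 and 544 and 541 CPM in DMSO and was not called. Barhl1 was the scarcest of them, with 4 to 10 reads a library. Such values do not correct for gene length, so levels of different genes are compared below only in FPKM, the authors' values scaled for gene length and depth.

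Because the 7 genes moved the same way, the sequences just upstream of their starts are shown for the 3 that share the same pair of promoter motifs and for Chodl, which had the largest difference and none of the motifs searched. RefSeq windows (GRCm38.p6) matched 6 of the 7 genes, with 2 starts for Cyp11a1. The 250 bases before each start are printed 5′ to 3′ on the gene's strand. Capitals mark the CCAAT box, the GC box GGGCGG, the TATA box TATAAA and the cyclic AMP response element core TGACG, or the reverse complement of any of these where the match is on the other strand.
Nppc, chr1:86670574-86670823, minus strand: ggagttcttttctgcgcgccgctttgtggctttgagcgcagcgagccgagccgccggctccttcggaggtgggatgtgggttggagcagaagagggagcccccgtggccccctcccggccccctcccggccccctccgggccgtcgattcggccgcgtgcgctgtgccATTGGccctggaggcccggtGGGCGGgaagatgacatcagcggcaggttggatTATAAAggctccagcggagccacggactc
Vipr1, chr9:121642466-121642715, plus strand: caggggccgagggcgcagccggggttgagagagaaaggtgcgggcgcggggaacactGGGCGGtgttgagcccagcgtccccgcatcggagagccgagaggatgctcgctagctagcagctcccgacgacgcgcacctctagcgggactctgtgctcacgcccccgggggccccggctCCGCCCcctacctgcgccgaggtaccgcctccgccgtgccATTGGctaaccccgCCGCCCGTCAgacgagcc
Papln, chr12:83763384-83763633, plus strand: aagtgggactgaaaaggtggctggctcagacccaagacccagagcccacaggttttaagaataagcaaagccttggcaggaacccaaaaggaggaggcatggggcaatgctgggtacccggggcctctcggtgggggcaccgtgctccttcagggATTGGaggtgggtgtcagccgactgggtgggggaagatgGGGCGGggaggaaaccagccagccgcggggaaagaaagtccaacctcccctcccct
Chodl, chr16:78930698-78930947, plus strand: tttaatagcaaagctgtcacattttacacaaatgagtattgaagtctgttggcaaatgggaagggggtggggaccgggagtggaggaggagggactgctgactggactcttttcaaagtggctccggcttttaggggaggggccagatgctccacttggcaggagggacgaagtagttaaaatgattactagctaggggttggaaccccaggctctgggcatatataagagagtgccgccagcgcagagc

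Motifs were searched on both strands in the 7 windows of these genes and in all 32851 windows of the same length. Only exact letters were matched, so near matches, such as tatataag in the Chodl window, were not counted. The CCAAT box was in 4 of the 7 windows and in 33.8% of all windows, and the GC box GGGCGG was in 3 of the 7 and in 32.7% of all. TATAAA was in 1 of the 7, 29 to 24 bases before the Nppc start, and in 12.4% of all. The cyclic AMP response element core TGACG was in 2 of the 7, those of Vipr1 and of the upstream Cyp11a1 start, and in 17.8% of all. In Vipr1 it shares a base, 13 bases before the start, with the nearest GC box. The full element TGACGTCA, which contains the core, was in 0 of the 7 and in 1.55% of all, and the Gli site GACCACCCA was in 0 of the 7 and in 0.225% of all. The nuclear receptor element AGGTCA was in 1 of the 7, at the downstream Cyp11a1 start, and in 14.0% of all. Neither Cyp11a1 window holds the annotated start of the gene, base 58006411. The upstream window ends before it, at base 57998023, and the downstream window begins after it, at base 58014702. All 250 bases of the downstream window are annotated as exon of Cyp11a1 itself. The B3galt2 window also overlaps annotated exons, of B3galt2 and Cdc73. It ends at base 143640696, past the annotated B3galt2 start at base 143640664. With 7 windows these counts are a description. Base composition varied widely, with 72.8% G and C in the Vipr1 window, 69.2% in Nppc, 61.6% in Papln, 57.6% and 50.4% in the Cyp11a1 windows, 52.0% in Chodl and 36.8% in B3galt2, against a median of 52.4% over all windows.

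Nppc (ENSMUSG00000026241, chromosome 1, 86666291 to 86670571, minus strand, GRCm38) encodes C-type natriuretic peptide. The peptide binds the receptor Npr2, a guanylyl cyclase that makes cyclic GMP, and is known for its role in bone growth and in the branching of sensory axons. Nppc had 182 and 178 counts in the GDC0449 libraries, against 41 and 26 in the DMSO libraries. That is 8.53 ± 0.142 CPM in GDC0449 and 1.85 ± 0.334 CPM in DMSO (SD, n = 2 each), with no overlap between the groups. In the authors' FPKM it stood at 5.42 and 5.23 in GDC0449, against 1.18 and 1.02 in DMSO. The log2 fold change was 2.18 with a standard error of 0.21, or 4.55-fold. On 427 reads in all, the replicates within GDC0449 differed by less than those within DMSO.

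Transcripts of natriuretic peptide receptors were present in these cells, though that of Npr1 was scarce, with 15 to 23 reads a library. Of the cyclic GMP-dependent kinase genes, Prkg1 had 0 reads in each library. Prkg2 had 1 and 0 counts in GDC0449 and 1 and 0 in DMSO. For genes outside the 7, a call needs an adjusted p below 0.05 and a difference of over 1.5-fold, and of all 15472 genes tested with edgeR 8.68% were called higher and 3.85% lower. Npr2 was at 162 ± 9.83 CPM in GDC0449 and 107 ± 8.21 CPM in DMSO (SD, n = 2 each), 1.52-fold higher (edgeR quasi-likelihood test, Benjamini-Hochberg adjusted p = 1.70e-10). It lies next to the 1.5-fold threshold and fell short of it without GDC0449 replicate 1, at a log2 fold change of 0.54, without DMSO replicate 2, at 0.52, and with DESeq2, at 0.585. Npr3, the receptor that clears natriuretic peptides, was at 33.8 ± 0.205 CPM in GDC0449 and 46.6 ± 2.10 CPM in DMSO. Its log2 fold change of -0.46 passed the adjusted p (edgeR, 1.22e-05) but not the fold threshold. The related hormone gene Nppa had 17 and 15 counts in GDC0449 libraries, against 6 and 5 in DMSO libraries (edgeR adjusted p = 0.0515), and Nppb had 1 count in all 4 libraries. Of the 16 listed genes of this system 9 were tested, and Npr2 was the 1 that was called. Pde2a, also listed, had 2 and 10 counts in GDC0449 and 0 and 1 in DMSO and was not tested. In the authors' FPKM it was at 5.51 and 6.85 in GDC0449, against 2.11 and 1.92 in DMSO.

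Vipr1 (ENSMUSG00000032528, chromosome 9, 121642716 to 121672954, plus strand) encodes VPAC1, a receptor coupled to cyclic AMP production that binds the neuropeptides VIP and PACAP. It was the most abundant of the 7 genes per length. Its counts were 2523 and 2472 in the GDC0449 libraries, against 647 and 481 in the DMSO libraries. Scaled, that is 118 ± 1.81 CPM in GDC0449 and 31.4 ± 2.17 CPM in DMSO (SD, n = 2 each). The groups lay far apart, and the lowest GDC0449 library was 3.56 times the highest DMSO library. The log2 fold change was 1.91 with a standard error of 0.08, or 3.76-fold, which made Vipr1 the member nearest to the threshold that picked the genes.

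For Vipr1 the authors' FPKM gave a smaller difference than the counts. FPKM stood at 11.65 and 12.6 in GDC0449, against 5.37 and 3.0 in DMSO, a ratio of group means of 2.90. The DMSO libraries, whose counts agree closely, thus stand apart in FPKM. Dividing the counts by the 5800 exonic bases annotated in GENCODE M21 and by the reads in genes gives 20.9 and 20.6 reads per kilobase, scaled for depth, in GDC0449, and 5.55 and 5.08 in DMSO. Counts and FPKM also differed for other genes. Of all genes in the table, 546 had 0 counts in every library and an FPKM of at least 1 in every library. The source of the difference for Vipr1 was not tested. Of the 7 genes, Vipr1 alone had a ratio of mean FPKM under 3.7.

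**Figure D1:**
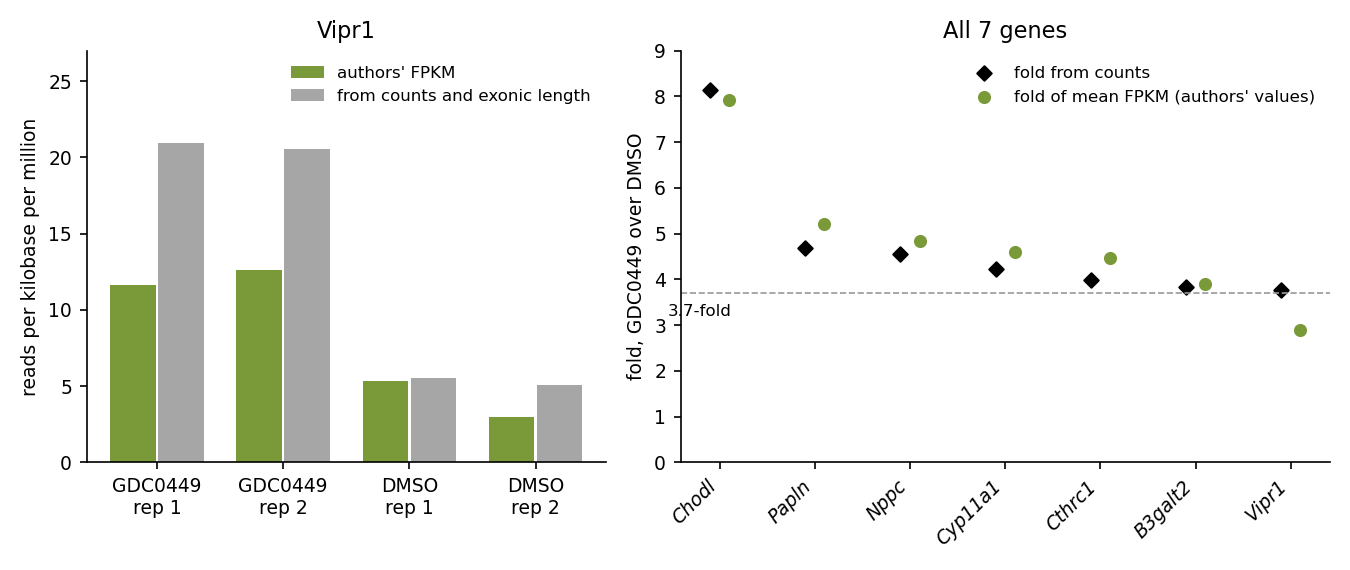
Left, Vipr1 in each library as the authors' FPKM (green bars) and as depth-scaled counts per exonic kilobase (grey bars). Right, the fold of GDC0449 over DMSO for each of the 7 genes from counts (black diamonds) and from the mean of the authors' FPKM (green circles), with a dashed line at 3.7-fold. Vipr1 is the 1 gene whose FPKM ratio, 2.90, lies below the line.

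Ligands and sister receptors of Vipr1 were uneven in level. Adcyap1r1, which encodes the PACAP receptor PAC1, had 4729 and 4724 counts in GDC0449 libraries and 1296 and 1050 in DMSO libraries. It rose 3.42-fold, to 224 ± 0.362 CPM in GDC0449, against 65.6 ± 0.541 CPM in DMSO (SD, n = 2 each; edgeR adjusted p = 1.10e-28). Adcyap1, the gene for PACAP itself, was called at 6.78 ± 0.329 CPM in GDC0449 and 4.11 ± 0.338 CPM in DMSO (edgeR adjusted p = 0.00144). Gipr, which encodes the receptor of the gut hormone GIP, rose 2.79-fold, to 9.84 ± 1.32 CPM in GDC0449, against 3.47 ± 0.780 CPM in DMSO (edgeR adjusted p = 2.35e-09). Vipr2, which encodes the second VIP receptor, had 13 and 22 counts in GDC0449 and 14 and 9 in DMSO (edgeR adjusted p = 0.568). Vip had 0 reads in each library, and a floor of 3 reads over all 4 libraries allows up to 0.0385 CPM.

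Of 21 listed genes of this family 7 were tested, of which 3 rose and 2 fell. The genes that fell were Calcrl, the calcitonin receptor-like receptor gene, and Ramp2, the protein that partners it. Ramp2 stood at 1.64 ± 0.0992 CPM in GDC0449 and 3.90 ± 0.245 CPM in DMSO (SD, n = 2 each; log2 fold change -1.25, edgeR adjusted p = 7.56e-05). In the authors' FPKM the Ramp2 difference was smaller, at 9.57 and 9.94 in GDC0449 and 12.4 and 13.5 in DMSO, and on log2(FPKM + 0.1) it was -0.41 and under the fold threshold. Calcrl stood at 1.26 ± 0.303 CPM in GDC0449 and 2.27 ± 0.477 CPM in DMSO (edgeR adjusted p = 0.0312). The calls of Adcyap1 and Calcrl were lost without DMSO replicate 1 (edgeR adjusted p = 0.1 and 0.115), without DMSO replicate 2 (0.0683 and 0.265) and with DESeq2 (0.0563 and 0.23). That of Calcrl was also lost without GDC0449 replicate 2 (0.237) and with no filter on low counts (0.162), and that of Ramp2 without DMSO replicate 1 (0.0545).

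Cyp11a1 (ENSMUSG00000032323, chromosome 9, 58006411 to 58027023, plus strand) encodes the mitochondrial enzyme that cleaves the side chain of cholesterol to give pregnenolone, the first step of steroid hormone synthesis. It had 264 and 216 counts in GDC0449 libraries, against 57 and 39 in DMSO libraries. Its level was 11.4 ± 1.62 CPM in GDC0449 and 2.66 ± 0.339 CPM in DMSO (SD, n = 2 each). FPKM were 2.02 and 1.72 in GDC0449, against 0.376 and 0.439 in DMSO. The groups did not overlap on either scale, and the log2 fold change was 2.08 with a standard error of 0.19, or 4.23-fold.

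An annotated long noncoding gene, Gm17322, begins upstream on the same strand and runs into Cyp11a1, sharing 145 bases or 3.02% of its exonic length. Gm17322 starts at base 57998041, just after the window before the upstream RefSeq start of Cyp11a1, which ends at base 57998023. Gm17322 had 688 and 633 counts in GDC0449 libraries, against 176 and 131 in DMSO libraries. It was 3.65-fold higher, at 31.3 ± 1.87 CPM in GDC0449 and 8.55 ± 0.583 CPM in DMSO (SD, n = 2 each). Both transcripts were therefore higher in GDC0449, and the noncoding gene had the more reads in every library. Whether reads of transcripts that start upstream were counted to Cyp11a1 was not tested.

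Other genes of steroid synthesis did not move with Cyp11a1 as a group. Star, which carries cholesterol into mitochondria, was at 14.2 ± 0.180 CPM in GDC0449 and 11.7 ± 0.216 CPM in DMSO (SD, n = 2 each; edgeR adjusted p = 0.0755). The electron carriers of Cyp11a1 were present. Fdxr was at 27.7 ± 0.292 CPM in GDC0449 and 30.5 ± 0.348 CPM in DMSO (edgeR adjusted p = 0.246), and Fdx1 at 4.01 ± 1.24 CPM in GDC0449 and 4.21 ± 0.161 CPM in DMSO (edgeR adjusted p = 0.826). The steroidogenic transcription factor gene Nr5a1 had 4 and 3 counts in GDC0449 libraries and 0 and 1 in DMSO libraries. Hsd3b1, Hsd3b2, Hsd3b6, Cyp21a1, Cyp11b1 and Cyp11b2, which act after pregnenolone, had 0 reads in each library. Not all listed genes of later steps were at 0. Cyp17a1 had 1 and 4 counts in GDC0449 and 0 and 1 in DMSO. Srd5a1 was at 7.47 CPM in GDC0449 and 5.59 CPM in DMSO, and Srd5a3 at 11.2 and 13.8 CPM, neither of them called.

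Of 27 listed steroid genes 13 were tested and 1 was called. It was Hsd11b2, the enzyme that inactivates glucocorticoids, which rose 3.65-fold, to 25.4 ± 0.592 CPM in GDC0449, against 6.87 ± 1.73 CPM in DMSO (SD, n = 2 each; edgeR adjusted p = 1.03e-17). Of 7 markers of adrenal and gonadal steroid-producing cells 3 had reads, and Cyp11b1, Hsd3b1, Mc2r and Lhcgr were at 0. Their sum, nearly all of it Star, was 14.6 and 14.4 CPM in GDC0449 libraries and 11.55 and 11.985 CPM in DMSO libraries.

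B3galt2 (ENSMUSG00000033849, chromosome 1, 143640664 to 143654614, plus strand) encodes a Golgi enzyme that adds galactose in a beta-1,3 linkage to glycan chains. It had 160 and 220 counts in GDC0449 libraries, against 53 and 31 in DMSO libraries. This corresponds to 9.01 ± 2.004 CPM in GDC0449 and 2.31 ± 0.546 CPM in DMSO (SD, n = 2 each). Per length it was the scarcest of the 7 genes, at 0.698 and 0.897 FPKM in GDC0449, against 0.214 and 0.196 FPKM in DMSO. Every GDC0449 library was above every DMSO library, but the GDC0449 replicates differed more than for any other of these genes. The log2 fold change was 1.94 with a standard error of 0.21, or 3.83-fold. It was 1.69 without GDC0449 replicate 2 and 1.73 without DMSO replicate 2, both under 3.7-fold.

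The whole of B3galt2 lies inside the span of Cdc73, which runs on the opposite strand, and 7.31% of its exonic bases are also exonic in Cdc73. The labels give no strand setting, so whether reads from the shared bases were counted to either gene is not known. Whether Cdc73 reads from the other B3galt2 bases were counted to B3galt2 was not tested. Cdc73 was far more abundant per length, at 7.55 and 8.22 FPKM in GDC0449 and 8.70 and 9.47 FPKM in DMSO. It was not higher in GDC0449, at 135 ± 7.09 CPM, against 157 ± 10.3 CPM in DMSO (SD, n = 2 each). Among 20 tested genes of the beta-1,3- and beta-1,4-glycosyltransferase families, B3galt5 was the 1 that was called. It rose 2.27-fold, to 7.66 ± 1.18 CPM in GDC0449, against 3.42 ± 0.874 CPM in DMSO (edgeR adjusted p = 2.39e-06). That call was lost without DMSO replicate 1 (edgeR adjusted p = 0.0886), without DMSO replicate 2 (0.0527) and with no filter on low counts (0.052). The relatives B3galt1 and B3galt6 had log2 fold changes of 0.09 and -0.44 and were not called.

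Papln (ENSMUSG00000021223, chromosome 12, 83763634 to 83792382, plus strand) encodes papilin, a secreted glycoprotein of basement membranes that shares domains with the ADAMTS metalloproteases but lacks a protease domain. It had 910 and 894 counts in GDC0449 libraries, against 187 and 140 in DMSO libraries. Its level was 42.8 ± 0.574 CPM in GDC0449 and 9.11 ± 0.583 CPM in DMSO (SD, n = 2 each), so the groups were separated by many times the spread of either. FPKM were 4.15 and 4.56 in GDC0449, against 0.917 and 0.752 in DMSO. The log2 fold change was 2.23 with a standard error of 0.11, or 4.68-fold.

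Relatives of papilin went both ways. Of 17 tested ADAMTS and ADAMTS-like genes 3 rose and 3 fell. Adamts7 rose 2.71-fold, to 10.8 ± 0.814 CPM in GDC0449, against 3.91 ± 1.31 CPM in DMSO (SD, n = 2 each; edgeR adjusted p = 2.17e-09). Adamts4 rose also, to 32.9 ± 1.44 CPM in GDC0449, against 20.6 ± 0.435 CPM in DMSO (edgeR adjusted p = 8.51e-08). The secreted protein gene Adamtsl1 was scarce and rose, with 54 and 50 counts in GDC0449 and 6 and 12 in DMSO (edgeR adjusted p = 2.85e-06, or 0.0532 without DMSO replicate 1). Thsd4, which encodes an ADAMTS-like protein of microfibrils, fell to 20.1 ± 0.821 CPM in GDC0449, against 49.9 ± 0.858 CPM in DMSO (edgeR adjusted p = 4.53e-18). Adamts14, a procollagen-processing protease gene, fell to 29.7 ± 0.209 CPM in GDC0449, against 63.3 ± 3.16 CPM in DMSO (edgeR adjusted p = 1.54e-16). Adamtsl5 fell on 24 and 21 counts in GDC0449, against 54 and 44 in DMSO (edgeR adjusted p = 0.000288), a call lost without DMSO replicate 1 (0.057) or DMSO replicate 2 (0.0576).

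Cthrc1 (ENSMUSG00000054196, chromosome 15, 39076932 to 39087121, plus strand) encodes a secreted glycoprotein with a short collagen repeat. In mice it favours the planar cell polarity branch of Wnt signalling by holding Wnt proteins together with Frizzled receptors and Ror2. The gene had 172 and 182 counts in GDC0449 libraries, against 31 and 44 in DMSO libraries. Scaled levels were 8.39 ± 0.328 CPM in GDC0449 and 2.15 ± 0.816 CPM in DMSO (SD, n = 2 each). In FPKM it was at 4.54 and 4.82 in GDC0449, against 0.758 and 1.34 in DMSO. The groups did not overlap, yet the DMSO replicates were farther apart on the log scale than for any other of the 7 genes. The log2 fold change of 1.99 (standard error 0.21, 3.98-fold) therefore moved most with the controls. It was 1.61 without DMSO replicate 1 and 2.40 without DMSO replicate 2.

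Most planar cell polarity genes were present and not called. Of 20 tested, 2 rose and 1 fell. Ror1, which encodes a receptor tyrosine kinase-like receptor for Wnt5a, rose 7.02-fold on 187 and 179 counts in GDC0449, against 22 and 22 in DMSO (edgeR adjusted p = 6.65e-15). Its sister Ror2, the receptor tied to Cthrc1, was at 52.1 ± 3.50 CPM in GDC0449 and 60.9 ± 8.91 CPM in DMSO (SD, n = 2 each; log2 fold change -0.23, edgeR adjusted p = 0.024, under the fold threshold). Daam2, a formin that acts in Wnt signalling, rose to 37.1 ± 2.51 CPM in GDC0449, against 19.7 ± 1.47 CPM in DMSO (edgeR adjusted p = 2.82e-11). Prickle1, a core polarity protein gene, fell to 8.99 ± 0.108 CPM in GDC0449, against 19.6 ± 0.330 CPM in DMSO (edgeR adjusted p = 7.27e-11). Fzd6 had 30 and 48 counts in GDC0449 and 36 and 44 in DMSO (edgeR adjusted p = 0.501).

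Cthrc1 and Papln are also made by fibroblasts and other matrix-producing cells. Of 8 fibroblast and meningeal markers 7 had reads, and Lum was at 0. Their sum was 4.37 and 4.98 CPM in GDC0449 libraries and 3.21 and 2.48 CPM in DMSO libraries. Col3a1 and Col6a1 were called higher on few reads. Col3a1 had 15 and 19 counts in GDC0449 and 6 and 4 in DMSO, and Col6a1 35 and 46 against 17 and 19. Of 7 endothelial and pericyte markers 5 had reads, Cdh5 and Kdr were at 0, and the sum was 1.19 and 1.94 CPM in GDC0449 libraries and 1.83 and 2.98 CPM in DMSO libraries. Pecam1 was called higher and Pdgfrb lower, again on few reads. Pecam1 had 11 and 17 counts in GDC0449 and 2 and 5 in DMSO, and Pdgfrb 9 and 13 against 20 and 26. The 7 microglia and macrophage markers all had reads, with sums of 1.04 and 1.23 CPM in GDC0449 and 1.93 and 3.04 CPM in DMSO. Tyrobp was called lower, on 3 and 6 counts in GDC0449 and 16 and 17 in DMSO. Of 6 astrocyte markers 5 had reads, and Aqp4 was at 0. Their sum was 270.006 and 262 CPM in GDC0449 libraries and 155 and 170.2 CPM in DMSO libraries, higher in GDC0449 as the 7 genes were. Slc1a2, a glutamate transporter gene, was called 2.27-fold higher and Aldoc, a glycolytic enzyme gene, 2.07-fold higher. Slc1a3, Gfap and S100b were not called, with log2 fold changes of -0.0737, 0.694 and -0.601. The astrocyte markers thus did not rise as a set. Most of the rise in their sum was that of Slc1a2, with means of 177 CPM in GDC0449 and 78.1 CPM in DMSO. The part of these lists in the differences of the 7 genes was not tested. In bulk RNA, more cells that express a gene and more RNA per cell cannot be told apart.

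Chodl (ENSMUSG00000022860, chromosome 16, 78930948 to 78951733, plus strand) encodes chondrolectin, a membrane protein with a C-type lectin domain that is known from skeletal muscle and from fast motor neurons of the mouse. It showed the largest difference of the 7 genes. Its counts were 496 and 475 in GDC0449 libraries, against 58 and 43 in DMSO libraries. Levels were 23.0 ± 0.724 CPM in GDC0449 and 2.81 ± 0.1995 CPM in DMSO (SD, n = 2 each). Per length, FPKM were 5.88 and 5.13 in GDC0449, against 0.734 and 0.658 in DMSO. With a log2 fold change of 3.02 (standard error 0.15), or 8.14-fold, it ranked 14 among all 15472 tested genes. Even the lowest GDC0449 library was 7.62 times the highest DMSO library.

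Few other lectins of its kind were expressed. Of 12 listed C-type lectin membrane and secreted proteins 7 had reads and 2 were tested. Layn, its closest listed relative, had 12 and 7 counts in GDC0449 and 3 and 3 in DMSO and was too scarce to test. Cd248, which encodes endosialin, fell to 8.37 ± 0.376 CPM in GDC0449, against 14.7 ± 1.54 CPM in DMSO (SD, n = 2 each; edgeR adjusted p = 1.93e-06).

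**Figure D2:**
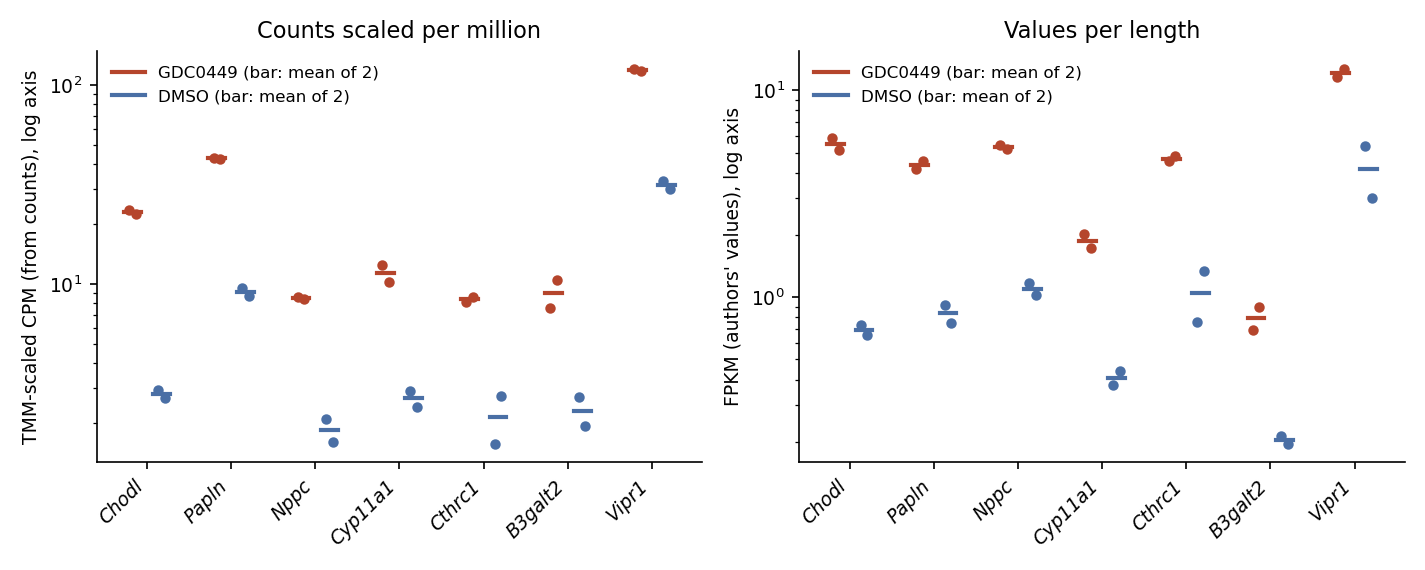
Level of each of the 7 genes in every library, as TMM-scaled CPM from the counts (left) and as the authors' FPKM (right), on log axes; points are libraries and bars the mean of the 2 libraries of a group, GDC0449 in red and DMSO in blue. Both GDC0449 libraries lie above both DMSO libraries for every gene on both scales.

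Set side by side, the 7 genes spanned a wide range of levels. In GDC0449 the mean FPKM ran downward over Vipr1 at 12.1, Chodl at 5.51, Nppc at 5.32, Cthrc1 at 4.68, Papln at 4.36, Cyp11a1 at 1.87 and B3galt2 at 0.798. The values of Chodl and Nppc overlapped between libraries, as did those of Cthrc1 and Papln, so these neighbours were not separated. In DMSO the order was Vipr1 at 4.18, Nppc at 1.10, Cthrc1 at 1.05, Papln at 0.834, Chodl at 0.696, Cyp11a1 at 0.408 and B3galt2 at 0.205. Cthrc1 overlapped both Nppc and Papln there, while Vipr1 was above all others. In mean FPKM Chodl stood above Nppc, Cthrc1 and Papln in GDC0449 and below them in DMSO. In depth-scaled counts per exonic kilobase Chodl was below these genes in both groups. In GDC0449 it was at 4.34 and 4.18 on that scale, Nppc at 8.40 and 8.25, Papln at 7.77 and 7.66 and Cthrc1 at 5.19 and 5.52. The place of Chodl in GDC0449 thus depends on the measure. Together the 7 genes took 223 and 219.7 CPM in GDC0449 libraries, against 54.7 and 49.9 CPM in DMSO libraries.

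All 7 genes passed the filter on low counts, and all 7 were called higher, against 8.68% of all genes tested. The rule that chose them sets a fold above that of the call in these same libraries. Their count of calls is therefore a description and no support for the rise. For all 7, both GDC0449 libraries were above both DMSO libraries in CPM, a pattern seen in 33.6% of tested genes. Differences of more than 3.7-fold upward were found for 103 genes, or 0.666% of those tested, and all 103 were called. Of these, 72 are protein-coding, and 38 of those averaged 1 CPM or more. Within that last set Chodl ranked 3 and Vipr1 34 by fold. The called protein-coding gene just outside the threshold was Veph1, at 3.699-fold, with 6.59 and 6.68 CPM in GDC0449 libraries and 1.83 and 1.74 CPM in DMSO libraries.

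**Figure D3:**
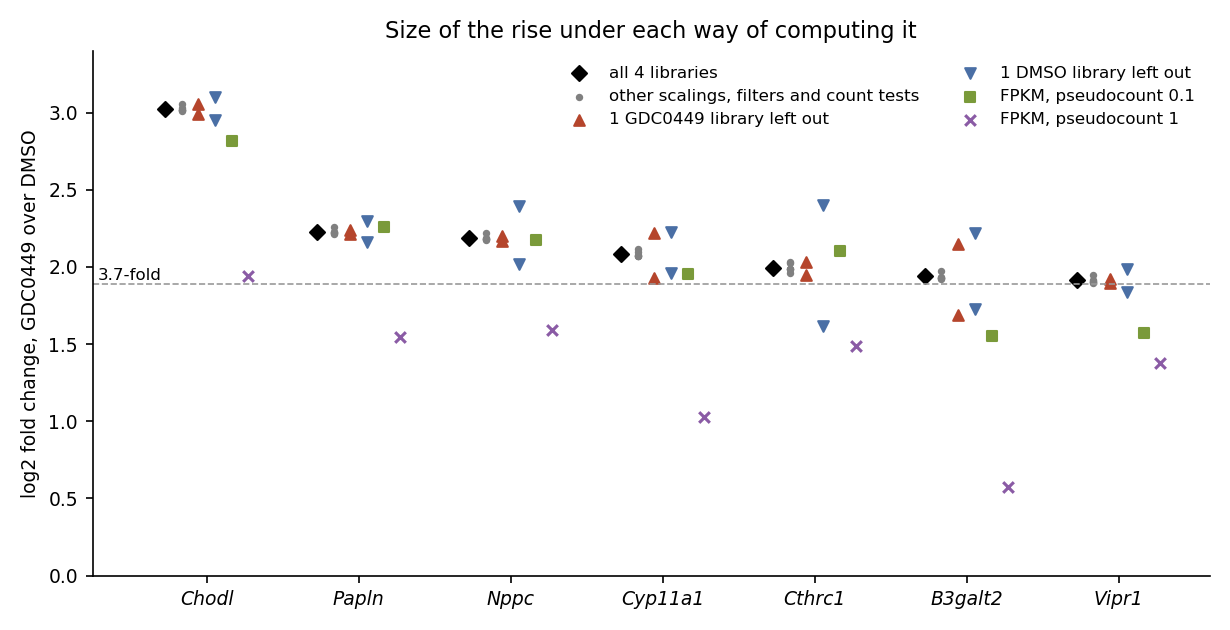
Log2 fold change of GDC0449 over DMSO for each of the 7 genes from all 4 libraries (black diamonds), under other scalings, filters and count tests (grey dots), with 1 library left out (triangles) and from the authors' FPKM with a pseudocount of 0.1 (squares) or 1 (crosses); the dashed line is 3.7-fold. Chodl stays above the other genes in every setting, and the values with a pseudocount of 1 are lower for every gene, down to 0.58 for B3galt2.

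By profile over the 4 libraries, the gene most like each of the 7 was found among 11823 protein-coding genes averaging 1 CPM or more. Likeness was the Euclidean distance between log2 CPM centred on each gene's mean, where 0 is identical. The gene nearest to Chodl was Myod1, the transcription factor of the skeletal muscle lineage, at a distance of 0.227. Myod1 had 228 and 236 counts in GDC0449 libraries, against 28 and 24 in DMSO libraries. Scd1, a fatty acid desaturase gene, was nearest both to Vipr1, at 0.0866, and to Cyp11a1, at 0.198. Nearest to Nppc was Medag at 0.151, to Papln Rsad2 at 0.105, to Cthrc1 Lmo1 at 0.150 and to B3galt2 Spats2l at 0.253. Among the 7 genes themselves the closest pair was Papln and Nppc at 0.1696 and the farthest Chodl and Cthrc1 at 1.21. With 4 libraries in 2 groups, such distances mostly reflect the size of the group difference.

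Over all 7 lists of relatives, 88 of 148 genes were tested. In GDC0449 11 of them, or 12.5%, were called higher and 7, or 7.95%, lower, against the 8.68% and 3.85% over all tested genes given above. Their median log2 fold change was 0.01, equal to that of all tested genes at 2 decimals. Direction varied between lists, with a median of 0.66 in the list of VIP, PACAP and secretin-type receptors, 0.28 in steroid synthesis, -0.11 in the glycosyltransferases and -0.43 in the C-type lectins, where 2 genes were tested.

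**Figure D4:**
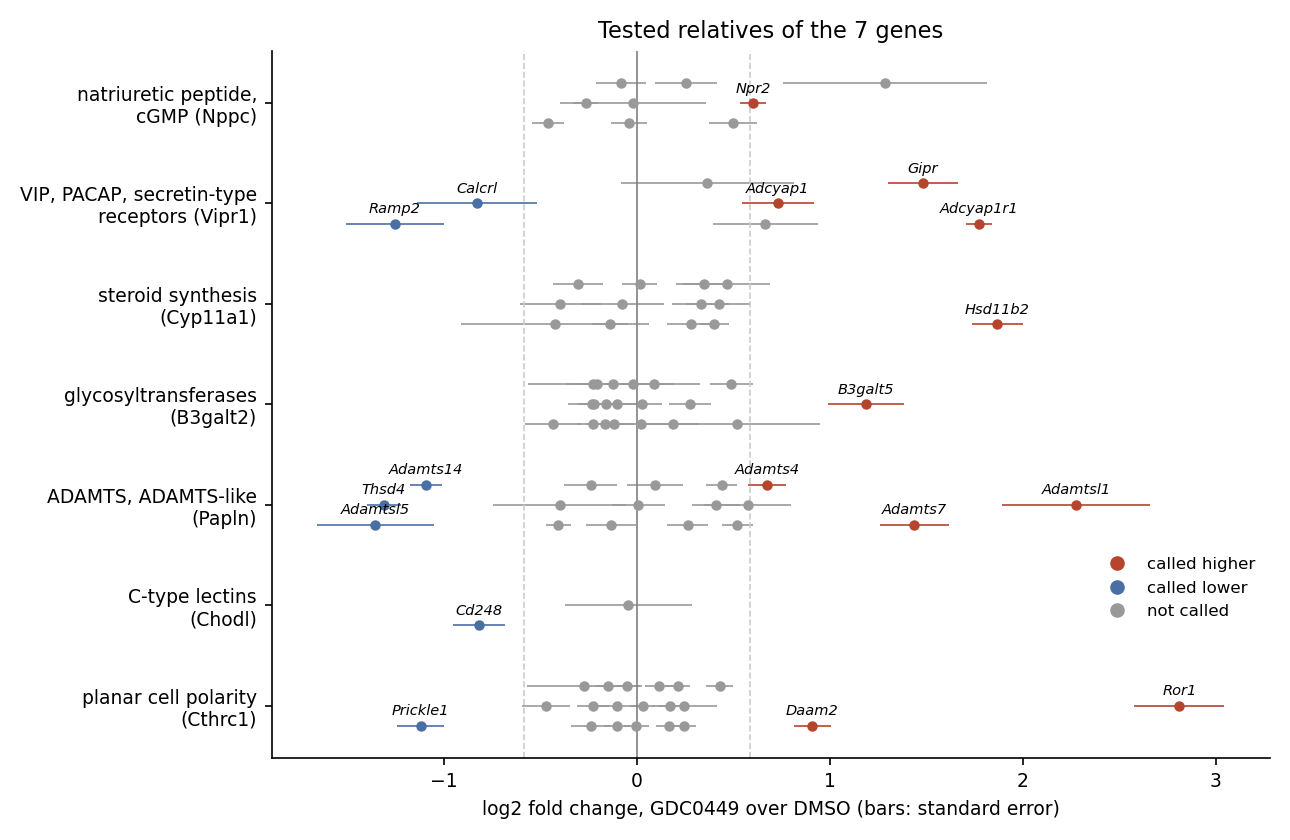
Log2 fold change of GDC0449 over DMSO with its standard error for the 88 tested relatives, by list, with called genes named; the dashed lines mark 1.5-fold in either direction. Called genes are 11 to the right (red) and 7 to the left (blue), with Ror1 farthest right at 2.81, and most relatives lie between the dashed lines.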

How the data were processed

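Raw counts per gene and FPKM were read as the authors deposited them, in the same table. Per the submitters' processing notes, reads were trimmed with Trim Galore, mapped to mm10 with HISAT2 and counted with HTSeq 0.11.1, and the same notes name DESeq2 1.26.0. The deposited FPKM take gene length and depth into account, per the labels; the sources used here give neither their tool nor the annotation release or strand setting. Of the entries, 6 name no gene; the reads these held, 27.7% to 29.8% of a library, were left out. Symbols and coordinates come from GENCODE M21 (GRCm38), which held 55480 of 55573 identifiers.

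The count test was edgeR 4.0.16 under R 4.3.3 (TMM, default expression filter, quasi-likelihood test with bias-corrected deviances, group as the only term, all 4 libraries). Calls need a Benjamini-Hochberg adjusted p below 0.05, over all genes tested, and over 1.5-fold. Standard errors are the log2 fold change over the root of F. The procedure was tested on simulated data. Replicates differed beyond sampling noise, with a chi-square per gene of 3.17 in GDC0449 and 3.95 in DMSO, and were kept apart. The 7 genes, the lists of relatives and the markers were chosen with earlier results of these data known. Named besides them are direct partners, called relatives with the smallest p, up to 4 a list, the nearest profiles, overlapping genes and the gene just under 3.7-fold. Other relatives with values were named after those values were seen. They are Calcrl, Adamtsl1, Adamtsl5, Nppa, Nppb, Npr1, Prkg1, Prkg2, Pde2a, Cyp17a1, Srd5a1, Srd5a3 and the enzyme genes at 0. The floor given for Vip covers counting error only. Standard errors and SD rest on 2 libraries a group, whose spread may be technical.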

Additional observations from a re-analysis of the deposited data

How the results depend on the processing

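Each of the 7 genes was higher in GDC0449 under all alternatives run. With relative log expression or upper-quartile scaling, no filter, DESeq2 1.42.0, limma-voom 3.58.1 or a replicate block, all 7 stayed over 3.7-fold; with 1 library left out 5 to 7 did. On log2(FPKM + 1) 1 did, and on log2(FPKM + 0.1) 5. Over all genes, 1343 were called higher and 596 lower. Higher calls numbered 746 with no filter and 780 with DESeq2. With FPKM they were 503 higher and 337 lower at a pseudocount of 1, and 804 higher at 0.1. Without a fold threshold 2794 were higher and 2793 lower. Leaving out 1 library gave 500 to 1221 higher and 351 to 605 lower, with the lowest counts without DMSO replicate 2, and 624 and 384 without DMSO replicate 1. The lone library is then assumed to vary like the other group. Of the relatives, 11 were higher and 7 lower; this became 6 and 4 on log2(FPKM + 1), 7 higher on log2(FPKM + 0.1), and 25 and 15 without a fold threshold. Leaving out 1 library gave 8 to 11 higher and 4 to 7 lower, the 4 without DMSO replicate 1. Signs turned for relatives that were not called. With 1 library left out, Vipr2 ran from -0.063 to 0.690, Fdx1 from -0.433 to 0.207, B3galt1 from -0.019 to 0.181 and Fzd6 from -0.656 to 0.020 (0.005 without DMSO replicate 2). On FPKM B3galt1 was at -0.16 with a pseudocount of 1 and at -0.27 with 0.1. The cause was not tested. The labels do not say that replicate numbers pair the libraries, and deviations of same-numbered libraries correlated at 0.0351; with the replicate block 1407 genes were higher and 615 lower, and 13 and 7 relatives. On log2(FPKM + 1), the calls of Adcyap1, Calcrl, Ramp2, B3galt5, Adamts4, Adamtsl1, Adamtsl5 and Daam2 were lost, and on log2(FPKM + 0.1) the same ones but for Adamtsl5 and Daam2. Except for Vipr1 and Papln, the 7 genes rest on at most 58 reads in each DMSO library, which limits how exactly a fold is known.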
